A study of Mus musculus with 3 samples.

Results

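The 10 genes described here are common markers of alternative (M2) macrophage activation, namely Mrc1, Arg1, Chil3, Retnla, Cd163, Stab1, Il4ra, Pparg, Folr2 and Mgl2. They were chosen by symbol and found by NCBI gene ID, and all 10 were among the 17615 genes listed in at least 1 of 3 RNA sequencing libraries. Each library came from macrophages sorted out of the spleens of C57BL/6J mice that carried an acute myeloid leukemia. The leukemia cells bore GFP and BFP, and they carried mM-CSF at a high level, sM-CSF at a high level, or no added form (control), with 1 library for each. M-CSF is the growth factor that maintains macrophages, and the labels do not spell out its prefixes. In all 3 groups 800000 leukemia cells were given to each mouse at 6 to 8 weeks of age without irradiation, the mice survived 30 to 40 days, and cells negative for GR1, intermediate for CD115 and positive for F4/80 were sorted on day 18. The sources used here do not state how many mice went into a library or what drives the leukemia.

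Alternative activation is the state that macrophages enter under IL-4 or IL-13. Both cytokines signal through a receptor that contains the IL-4 receptor alpha chain, whose kinases activate the transcription factor STAT6, and STAT6 induces genes such as Arg1, Chil3, Retnla, Mrc1 and Mgl2 in the mouse. Several of the markers also have lives outside that response, since Mrc1 and Cd163 are carried by resident macrophages of the splenic red pulp, Stab1 by sinusoidal endothelium, and Chil3 by monocytes and granulocyte precursors.

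Both marker genes of the sort were expressed, with Csf1r, which encodes CD115, at 222 FPKM in the mM-CSF, 149 in the sM-CSF and 268 in the control library, and Adgre1, which encodes F4/80, at 67.5, 65.5 and 101 FPKM in the same order. Total estimated counts were 8570730, 8943850 and 9088200 in the same order. FPKM is a count scaled to gene length and library size, so levels of different genes can be set side by side on that scale. Markers of other cells were present too. The 5 B cell markers summed to 2503, 2211 and 1149 FPKM and the 5 plasma cell markers to 4383, 1445 and 1388 FPKM, in the same order of libraries. With 1 library per group there was no replicate spread, so no test between groups could be made, and each difference is one between single libraries. The comparisons of mM-CSF and of sM-CSF with control share the control library. In sorted bulk RNA, fewer cells of a type and less RNA per cell cannot be told apart.

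DNA sequence before the transcription start is shown for the markers on which the results turn. These are Chil3 and Pparg, the genes that passed in some comparison a rule of 2-fold in FPKM + 1 with at least 5 FPKM in the higher of the 2 libraries, and Retnla, the single marker whose window held a STAT motif although the gene was hardly expressed. Each run is 250 bases long, ends at the start site and reads 5′ to 3′ on the gene's strand, from RefSeq on GRCm38.p6. Capitals mark the STAT motif TTCNNNNGAA and the nuclear receptor hexamer AGGTCA, both searched on both strands. They did not overlap in these windows.
Chil3, chr3:106167565-106167814, minus strand: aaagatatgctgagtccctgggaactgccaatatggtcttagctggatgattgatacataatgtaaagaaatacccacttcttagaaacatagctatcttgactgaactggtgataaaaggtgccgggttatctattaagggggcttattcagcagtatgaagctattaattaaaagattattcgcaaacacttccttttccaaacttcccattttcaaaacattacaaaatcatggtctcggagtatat
Pparg, start 1, chr6:115360894-115361143, plus strand: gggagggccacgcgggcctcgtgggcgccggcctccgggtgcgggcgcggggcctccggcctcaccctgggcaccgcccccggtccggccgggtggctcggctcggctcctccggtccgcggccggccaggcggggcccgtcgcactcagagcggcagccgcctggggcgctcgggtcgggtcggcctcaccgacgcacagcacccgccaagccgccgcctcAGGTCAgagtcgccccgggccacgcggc
Pparg, start 2, chr6:115362099-115362348, plus strand: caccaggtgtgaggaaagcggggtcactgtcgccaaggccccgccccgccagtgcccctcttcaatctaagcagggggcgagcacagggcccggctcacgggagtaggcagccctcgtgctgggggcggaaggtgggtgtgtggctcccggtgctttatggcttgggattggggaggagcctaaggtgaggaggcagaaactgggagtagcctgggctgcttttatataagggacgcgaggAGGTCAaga
Pparg, start 3, chr6:115421816-115422065, plus strand: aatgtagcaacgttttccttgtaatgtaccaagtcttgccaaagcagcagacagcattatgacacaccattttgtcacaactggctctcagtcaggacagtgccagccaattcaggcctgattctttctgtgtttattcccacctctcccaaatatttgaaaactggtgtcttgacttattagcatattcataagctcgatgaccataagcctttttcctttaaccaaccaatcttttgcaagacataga
Retnla, chr16:48842359-48842608, plus strand: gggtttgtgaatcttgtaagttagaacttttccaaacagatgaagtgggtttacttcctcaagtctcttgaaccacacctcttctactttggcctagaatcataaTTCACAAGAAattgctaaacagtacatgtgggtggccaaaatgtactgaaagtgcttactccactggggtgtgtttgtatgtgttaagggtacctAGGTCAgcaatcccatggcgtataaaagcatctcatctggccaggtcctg

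Promoter windows were available for 9 of the 10 markers, in 12 windows because Pparg has 3 starts and Folr2 has 2 (Arg1 is named only). The STAT motif was present in 5.85% of the 32851 windows of this length in the genome table and before Retnla among the markers, 145 bases upstream of its start. The hexamer, present in 14.0% of all windows, lay 28 and 9 bases before the first and the second Pparg start and 50 bases before the Retnla start. The Chil3 window held neither. The first Pparg window was 82.4% G and C, against 63.6% and 40.8% in the windows of the second and the third start. These are matches of letters and not measured binding sites.

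Of the 10 markers, 8 reached 1 FPKM in at least 1 library and 6 reached 5 FPKM. Il4ra and Mrc1 were the most abundant, Pparg and Cd163 lay in the middle, and Mgl2 was at 4.26 to 5.40 FPKM and Chil3 at 3.80 to 10.4 FPKM. Folr2 and Stab1 passed 1 FPKM in the mM-CSF library alone. Arg1 and Retnla, the classical readouts of IL-4 in mouse macrophages, stayed under 1 FPKM in all 3 libraries. The plot of levels by library shows this order.

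**Figure D1:**
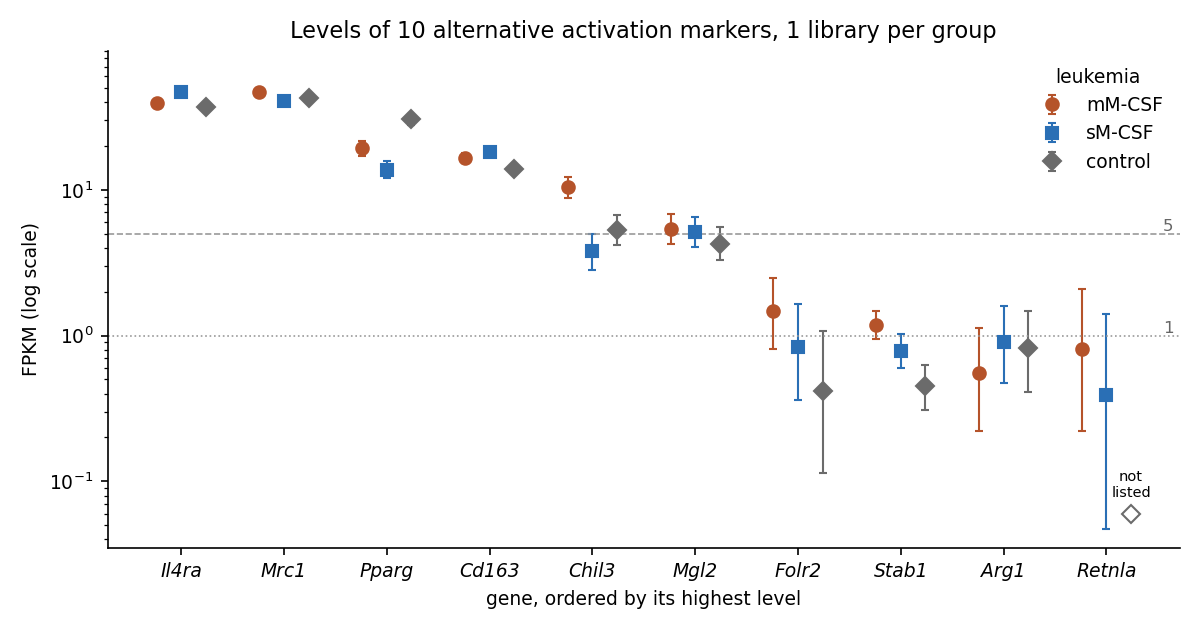
FPKM (log scale) of the 10 markers in the mM-CSF, sM-CSF and control libraries, with 1 point per library and bars for the exact 95% Poisson interval of the count. Pparg is highest in the control library, Chil3 in the mM-CSF library, and Arg1 and Retnla lie below the dotted line at 1 FPKM. The dashed line marks 5 FPKM, and the open symbol stands for a gene with no row in that table.

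The receptor that starts the pathway varied little. Il4ra (gene 16190), the alpha chain shared by the IL-4 and IL-13 receptors, stood at 39.4 FPKM with mM-CSF and 47.0 FPKM with sM-CSF, against 37.1 FPKM in the control library. It was thus highest with sM-CSF and close to the control with mM-CSF. The ratio of its shares of counts was 1.27 for sM-CSF over control, with a 95% interval of 1.19 to 1.35 that covers counting error only. For mM-CSF over control it was 1.07 (0.999 to 1.14), an interval that includes 1, and for mM-CSF over sM-CSF 0.84 (0.789 to 0.895). Il4ra placed above 86.2%, 89.3% and 86.0% of listed genes in the mM-CSF, sM-CSF and control libraries.

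Pparg (gene 19016), a nuclear receptor for lipid ligands that supports alternative activation, differed most from the control in the sM-CSF library. It was at 19.3 FPKM in the mM-CSF and 13.8 FPKM in the sM-CSF library, against 30.6 FPKM in the control library, from 298, 225 and 506 reads. Both M-CSF libraries were below the control, the sM-CSF library more so. On the scale of log2(FPKM + 1), which understates changes of low genes, the difference was -0.64 for mM-CSF and -1.10 for sM-CSF against control. The share of counts was 2.21-fold lower with sM-CSF (95% counting interval 1.89 to 2.60) and 1.60-fold lower with mM-CSF (1.39 to 1.85). Between the M-CSF libraries, mM-CSF over sM-CSF gave a ratio of 1.38 (1.16 to 1.65). The listed length of Pparg, which depends on the mix of its transcripts, was 1799, 1831 and 1826 bases in the mM-CSF, sM-CSF and control libraries.

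Chil3 (gene 12655), which encodes the secreted chitinase-like protein Ym1, was at 10.4 FPKM in the mM-CSF and 3.80 FPKM in the sM-CSF library, against 5.33 FPKM in the control library. These values rest on 137, 52 and 74 reads. The mM-CSF library was the highest, and the sM-CSF library lay below the control. The share of counts was 1.96-fold that of the control with mM-CSF (1.47 to 2.64) and 0.714-fold with sM-CSF (0.491 to 1.03, which includes 1). The ratio of mM-CSF to sM-CSF was 2.75 (1.98 to 3.86), a log2 difference of 1.25. Sequence shared with other genes limits this value, as 29.4% of the 50-base windows of the Chil3 transcript in GENCODE also occur in Chil4 or the predicted gene Gm6522. Chil4 itself had no row in any of the 3 tables.

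Markers of granulocytes and their precursors were, as Chil3 was, highest with mM-CSF. Between sM-CSF and control the median difference of that list was -0.003, while Chil3 differed by -0.40. The 13 fixed genes of that list summed to 1092 FPKM in the mM-CSF and 209 FPKM in the sM-CSF library, against 200.4 FPKM in the control library. Of these, 10 were called higher with mM-CSF against each of the other libraries by the rule of 2-fold and 5 FPKM, which 8.97% of all genes met against control and 3.79% against sM-CSF. None of the 13 was at 0 in any library. Ly6g, the defining gene of mature neutrophils, was at 1.45, 0.36 and 0.25 FPKM in the mM-CSF, sM-CSF and control libraries, and the sort took cells negative for GR1, an antigen of these cells. The part of these cells in the Chil3 values was not tested. The genes with the profile most like that of Chil3 over the 3 libraries were Spic, Sapcd2 and Fam72a, at Euclidean distances of 0.047, 0.050 and 0.053 on the centred log2(FPKM + 1) scale, out of 9914 genes compared. Spic, a transcription factor gene of the red pulp macrophages, was at 201 FPKM in the mM-CSF and 88.2 FPKM in the sM-CSF library, against 114 FPKM in the control library. All 9 red pulp macrophage markers, Spic among them, were detected in each library and summed to 2976 FPKM in the mM-CSF and 1404 FPKM in the sM-CSF library, against 1426 FPKM in the control library. Most of that sum's excess over control lay in C1qa, at 1129 FPKM with mM-CSF against 254 FPKM in the control library, and in Trf, at 614 FPKM against 114 FPKM. These were the 2 of the 9 called higher than control, the median difference of the list was 0.45, and its part in the Chil3 values was not tested.

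Among products of the IL-4 response, Arg1 and Retnla were low. Arg1 (gene 11846), the arginase that turns arginine into ornithine and urea, was at 0.55 FPKM in the mM-CSF and 0.91 FPKM in the sM-CSF library, against 0.82 FPKM in the control library, from 7, 12 and 11 reads. Its libraries were not distinguishable at this depth, with ratios to control of 0.675 (0.222 to 1.91) for mM-CSF and 1.11 (0.448 to 2.77) for sM-CSF. Retnla (gene 57262), which encodes the secreted protein RELM alpha, was at 0.81 FPKM in the mM-CSF and 0.39 FPKM in the sM-CSF library and had no row in the control table. Those levels are 4 and 2 reads, too few for a fold.

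Mgl2 (gene 216864), a galactose-binding lectin of alternatively activated macrophages and some dendritic cells, was at 5.40 FPKM in the mM-CSF and 5.12 FPKM in the sM-CSF library, against 4.26 FPKM in the control library. The ratios of its shares of counts were 1.27 (0.891 to 1.82) for mM-CSF and 1.20 (0.841 to 1.72) for sM-CSF over control, and both intervals include 1. The Mgl2 counts were not whole, and 16.5% of its 50-base windows occur in its relative Clec10a or in other genes. Clec10a was at 3.42 and 4.75 FPKM in the mM-CSF and sM-CSF libraries, against 3.70 FPKM in the control library, and its ratios to control of 0.933 (0.608 to 1.43) and 1.28 (0.869 to 1.89) also had intervals that include 1. The 8 markers of conventional dendritic cells summed to 129 FPKM in the mM-CSF and 398 FPKM in the sM-CSF library, against 438 FPKM in the control library. Of these markers, none at 0 in any library, 7 were called lower with mM-CSF than in the control library, beside 15.1% of all genes. The part of such cells in the Mgl2 values was not tested.

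Scavenger and uptake receptors of resident macrophages made up the rest. Mrc1 (gene 17533), the mannose receptor, was at 46.6 FPKM in the mM-CSF and 40.5 FPKM in the sM-CSF library, against 42.5 FPKM in the control library. All 3 libraries were within a narrow band, with ratios to control of 1.10 (1.04 to 1.17) for mM-CSF and 0.955 (0.898 to 1.02) for sM-CSF. Cd163 (gene 93671), the receptor for haptoglobin-hemoglobin complexes, was at 16.5 FPKM in the mM-CSF and 18.3 FPKM in the sM-CSF library, against 14.0 FPKM in the control library. Both M-CSF libraries were above the control, by 1.18-fold (1.06 to 1.33) with mM-CSF and 1.31-fold (1.18 to 1.47) with sM-CSF.

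Stab1 (gene 192187), which encodes the endocytic receptor stabilin-1, and Folr2 (gene 14276), which encodes folate receptor beta, were low but ordered alike. Stab1 was at 1.19 FPKM in the mM-CSF and 0.79 FPKM in the sM-CSF library, against 0.45 FPKM in the control library, from 83, 57 and 33 reads. The mM-CSF library was highest and the control lowest, with ratios to control of 2.67 (1.76 to 4.12) for mM-CSF and 1.76 (1.12 to 2.78) for sM-CSF, and of 1.52 (1.07 to 2.17) for mM-CSF over sM-CSF. Folr2 was at 1.47 FPKM in the mM-CSF and 0.84 FPKM in the sM-CSF library, against 0.42 FPKM in the control library, from 14, 8 and 4 reads. Its ratio to control was 3.71 (1.17 to 15.5) for mM-CSF, and 2.03 (0.544 to 9.22) for sM-CSF, which includes 1. Folr2 is also the least certain marker, since 56.7% of its 50-base windows occur in the predicted gene Gm10602.

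Endothelial cells also carry Stab1. Among their markers Cdh5 was at 0.29, 0.89 and 0.79 FPKM, Kdr at 0.13, 0.69 and 1.95 FPKM, Plvap at 0.91, 1.10 and 1.19 FPKM and Lyve1 at 0, 0.09 and 0 FPKM in the mM-CSF, sM-CSF and control libraries. Cdh5, Kdr and Plvap were lowest with mM-CSF, where Stab1 was highest, while Madcam1 and Stab2 were highest there too. Tek, Emcn and Madcam1 stayed between 0 and 0.41 FPKM, and Emcn and Lyve1 were at 0 in at least 1 library. The 9 endothelial markers summed to 56.7 and 66.0 FPKM in the mM-CSF and sM-CSF libraries, against 69.7 FPKM in the control library, mostly from Pecam1, which leukocytes express, and their part in the Stab1 values was not tested. Stab2, the relative of Stab1, was at 11.4 FPKM in the mM-CSF and 7.02 FPKM in the sM-CSF library, against 7.99 FPKM in the control library.

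**Figure D2:**
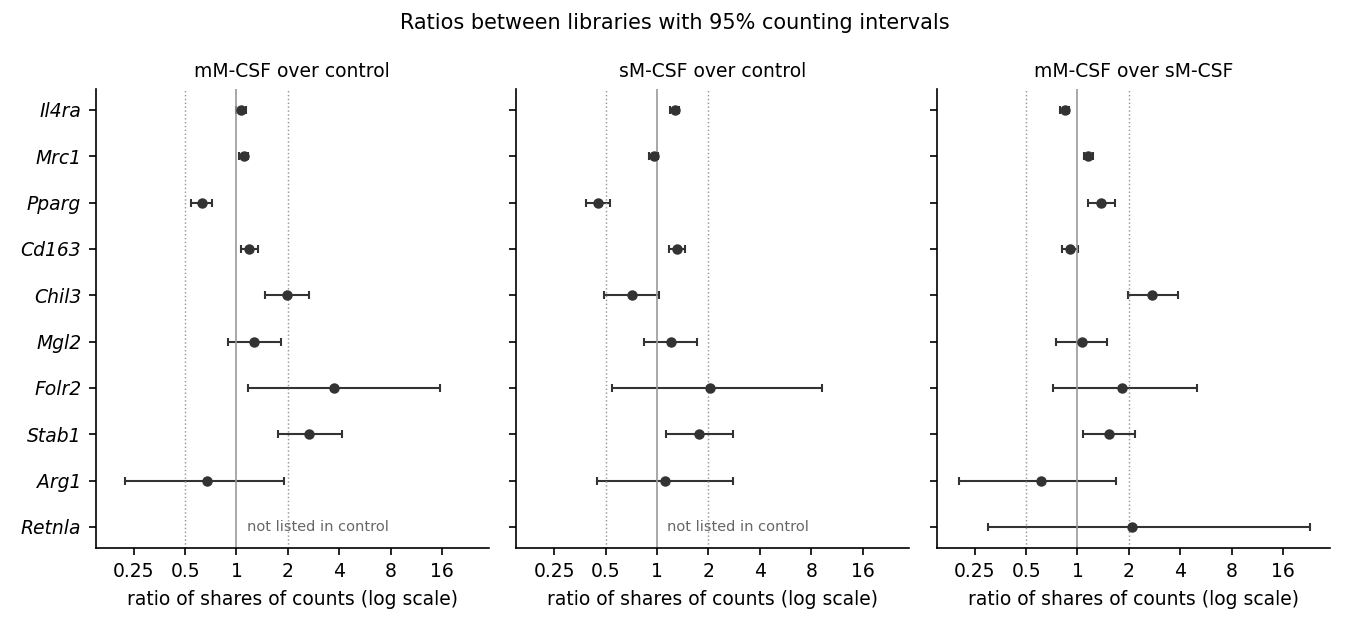
Ratio of each marker's share of counts between libraries (log scale) with exact 95% counting intervals, for mM-CSF over control, sM-CSF over control and mM-CSF over sM-CSF. Pparg lies left of 1 in both comparisons with control, Chil3 right of 1 for mM-CSF over both other libraries, and the intervals of Arg1 and Retnla are wide. Dotted lines mark 2-fold.

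Calls of higher or lower needed a difference of at least 1 in log2(FPKM + 1), which is 2-fold, and 5 FPKM or more in the library with the larger value. Between mM-CSF and control, 0 of the 10 markers was higher and 0 lower, against a background of 8.97% of 9789 genes higher and 15.1% lower (24.1% in either direction). Between sM-CSF and control, 0 was higher and 1 (Pparg) lower, against 0.785% of 9683 genes higher and 1.63% lower (2.42% in either direction). Between mM-CSF and sM-CSF, 1 (Chil3) was higher and 0 lower, against 3.79% of 9574 genes higher and 8.73% lower (12.5% in either direction). With 6 markers able to meet the minimum, these counts do not set the list apart from other genes. The Chil3 call ended with the trend over gene length removed (0.95) and with a pseudocount of 5, and the Pparg call ended with that pseudocount. Rescaled to TPM, Pparg was also called lower with mM-CSF than in the control, beside 29.3% of all genes.

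Counting intervals that exclude 1 were common among all genes. For mM-CSF over control they lay above 1 for Mrc1, Chil3, Cd163, Stab1 and Folr2, 5 of the 8 markers at 1 FPKM or more, and below 1 for Pparg, against 33.1% and 41% of 12782 genes. For sM-CSF over control they lay above 1 for Cd163 and Il4ra, 2 of 6 markers, and below 1 for Pparg, against 23.3% and 24.8% of 12670 genes. For mM-CSF over sM-CSF they lay above 1 for Mrc1, Chil3, Stab1 and Pparg, 4 of 8 markers, and below 1 for Il4ra, against 27.9% and 40.3% of 12698 genes. The median difference of the measured markers was 0.26, 0.08 and 0.24 in these comparisons, beside medians of -0.07, 0.02 and -0.11 over all genes at 1 FPKM or more. Stab1 and Folr2 passed the 1 FPKM minimum through the mM-CSF library alone, so it favours ratios above 1 for both. They enter the counts and the medians of both comparisons with mM-CSF. For sM-CSF against control the markers' median was 0.26 over all 10 markers with no minimum, and -0.05 on TPM. For mM-CSF against control it was 0.13 over the 5 markers that reach 10 FPKM.

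Gene length moved with these values in the mM-CSF library, where short genes were on the whole higher and long genes lower than in the control. At the length of Stab1, 7995 bases, the running median of all genes at 5 FPKM or more was -1.16, while Stab1 differed by 0.59. At 5322 bases it was -0.75, while Mrc1 differed by 0.13, and at 1539 bases it was 0.46, while Chil3 differed by 0.85. Against this trend Stab1 stood 1.75 above, Mrc1 0.89, Il4ra 0.81, Cd163 0.80 and Chil3 0.39 above, while Pparg stood at -0.95 from it. The Stab1 distance is not on a like scale. Stab1 stayed under 5 FPKM, where log2(FPKM + 1) understates changes, while the line comes from genes at 5 FPKM or more. Folr2, also under 5 FPKM, differed by 0.80 where the line was at 0.77, a distance of 0.02. That match carries the same limit, as its share of counts was 3.71-fold that of the control. In the sM-CSF library the trend was flatter, and with it removed Pparg differed from control by -1.20 and Chil3 by -0.53. The FPKM values of all genes added up to 624289 with mM-CSF and 500018 with sM-CSF, against 452400 in the control library. Rescaling to TPM, which makes these sums equal, turned the mM-CSF differences of Mrc1, Il4ra, Cd163 and Mgl2 against control below 0, so the direction of these 4 markers depends on the scaling. Removal of the trend did the same to Mgl2 (-0.17). Between mM-CSF and sM-CSF, TPM turned Mrc1 and Mgl2 below 0, and removal of the trend turned Il4ra and Cd163 above 0 and Folr2 and Mgl2 below it. Between sM-CSF and control, removal of the trend turned Mrc1 above 0 (0.09) and Arg1 below it (-0.08). For Folr2 and Arg1, both under 5 FPKM, these turns carry the limit given above. What the trend owes to the cells and to the libraries was not tested.

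**Figure D3:**
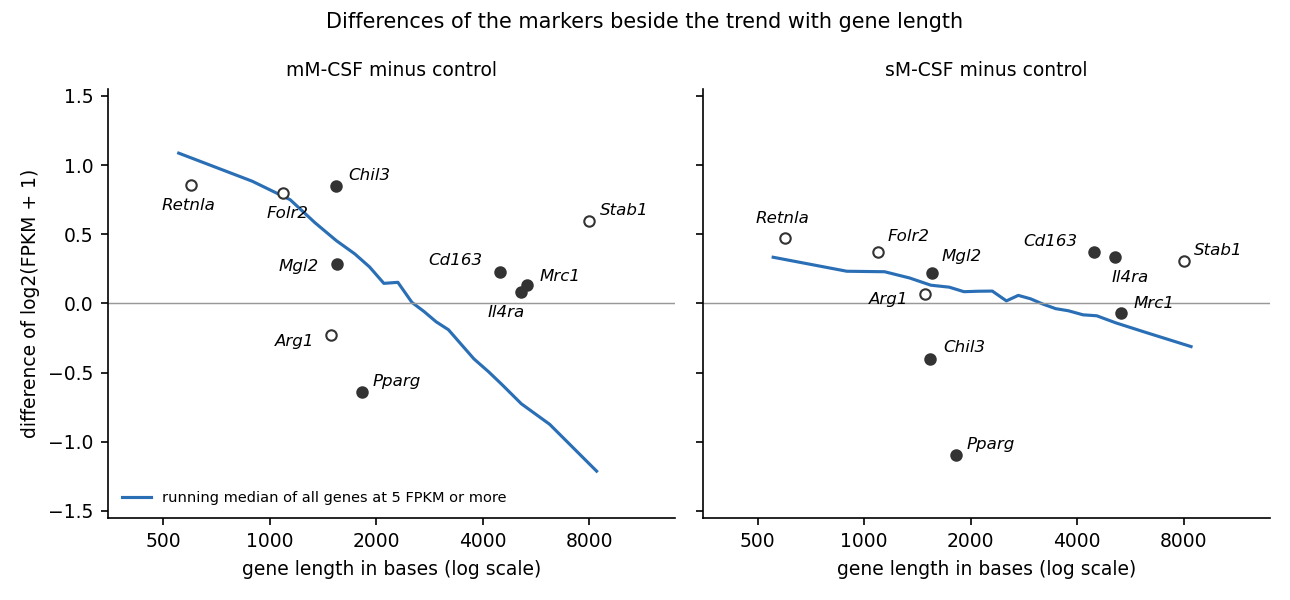
Difference of log2(FPKM + 1) of each marker against its gene length in bases (log scale), for mM-CSF minus control and sM-CSF minus control. Filled points reach 5 FPKM in the higher library, open points do not, and the line is the running median of all genes at 5 FPKM or more. Distances of open points from the line are therefore not on a like scale. The long genes Stab1, Mrc1, Il4ra and Cd163 lie above the line and Pparg below it in both panels.

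For mM-CSF against control, counts in the lists that follow stand beside 8.97% of all genes called higher and 15.1% lower. For sM-CSF against control they stand beside 0.785% higher and 1.63% lower. With the length trend removed, the shares of all genes were 2.93% higher and 7.95% lower for mM-CSF. For sM-CSF they were then 0.485% and 1.79%. The signalling chain below the receptor was examined with a list of 17 genes, of which 16 were in the tables and 14 were at 1 FPKM or more. With mM-CSF 5 of them were 2-fold lower than in the control and 0 higher, with a median difference of -0.82. Stat6, the main transcription factor of the pathway, was at 42.7 FPKM in the mM-CSF and 77.5 FPKM in the sM-CSF library, against 77.1 FPKM in the control library, and did not pass the 2-fold rule (-0.84). The 5 lower genes were Irs2, an adaptor of the IL-4 receptor, Jak2, Stat3, Il13ra1 and Socs3. Irs2 was at 1.35 FPKM in the mM-CSF and 6.10 FPKM in the sM-CSF library, against 11.6 FPKM in the control library. Jak2, which encodes a kinase bound to cytokine receptors, was at 12.96 FPKM in the mM-CSF and 47.5 FPKM in the sM-CSF library, against 59.5 FPKM in the control library. Il13ra1, the partner of Il4ra in the IL-13 receptor, was at 5.03 FPKM in the mM-CSF and 8.31 FPKM in the sM-CSF library, against 12.97 FPKM in the control library. Stat3 was at 29.2 and 51.8 FPKM in the mM-CSF and sM-CSF libraries, against 69.4 FPKM in the control library, and these genes all ran lowest with mM-CSF. With sM-CSF 0 of the 16 genes passed in either direction (median 0.01). With the length trend removed the list's median for mM-CSF was -0.39 and 3 genes stayed lower (Jak2, Socs3 and Irs2), while Stat3 (-0.64) and Il13ra1 (-0.83) no longer passed. The cytokine gene Il4 itself did not pass 0.57 FPKM, and Il13 had no row in the 3 tables. Stat6, Socs3 and Il4 lay outside the rule for named genes and were chosen after their values were seen.

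Among transcription regulators of alternative activation, those that passed the 2-fold rule were all lower than in the control. Klf4, which cooperates with STAT6 in this programme, was at 3.89 FPKM in the mM-CSF and 13.3 FPKM in the sM-CSF library, against 39.5 FPKM in the control library. Cebpb, a factor needed for Arg1 induction, was at 21.6 and 18.1 FPKM in the mM-CSF and sM-CSF libraries, against 75.8 FPKM in the control library. Both were lower in both M-CSF libraries. Kdm6b, a histone demethylase gene, was at 6.91 FPKM in the mM-CSF and 18.5 FPKM in the sM-CSF library, against 24.7 FPKM in the control library. Bhlhe40 was at 15.1 and 36.8 FPKM in the mM-CSF and sM-CSF libraries, against 64.9 FPKM in the control library. Of the 15 listed genes 4 were lower with mM-CSF (Klf4, Cebpb, Kdm6b and Bhlhe40) and 2 with sM-CSF (Klf4 and Cebpb), with medians of -0.21 and -0.19. With the length trend removed Kdm6b (-0.74) no longer passed with mM-CSF, Batf3 was called lower, and Maf and Bhlhe41 higher. Among monocyte markers, Nr4a1 was at 21.7 and 94.9 FPKM in the mM-CSF and sM-CSF libraries, against 266 FPKM in the control library, Ace at 4.09 and 26.5 FPKM, against 132 FPKM, and Cx3cr1 at 8.70 and 14.4 FPKM, against 46.8 FPKM. These 3 of the 9 monocyte markers were called lower in both M-CSF libraries, in the order that Klf4 had, while 1 (Ly6c2) was called higher with mM-CSF. Their part in the values of the regulators was not tested. The list summed to 552 and 520 FPKM in the mM-CSF and sM-CSF libraries, against 795 FPKM in the control library, and none of it was at 0. Irf4, another regulator of the programme, was at 28.8 and 35.2 FPKM in the mM-CSF and sM-CSF libraries, against 35.2 FPKM in the control library (chosen after its value was seen).

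Other genes linked to alternative activation gave no higher call against control. Of 25 such genes 24 were at 1 FPKM or more, 6 were 2-fold lower with mM-CSF and 0 higher, and the median was -0.57. Without the length trend 7 were lower, Ear2 in addition, and 2 higher (Igf1 and F13a1). Tgm2, the transglutaminase that marks alternative activation in both mouse and human macrophages, was at 29.3 FPKM in the mM-CSF and 71.7 FPKM in the sM-CSF library, against 104 FPKM in the control library. Cd36, a lipid scavenger receptor gene, was at 5.92 and 13.6 FPKM in the mM-CSF and sM-CSF libraries, against 25.8 FPKM in the control library. Clec7a, the beta-glucan receptor dectin-1, was at 9.47 and 23.4 FPKM in the mM-CSF and sM-CSF libraries, against 32.7 FPKM in the control library. These 3 genes ran in the order control, sM-CSF, mM-CSF from high to low, unlike any marker of the 10. Cd209a, a lectin that is also in the dendritic cell list, was at 4.25 FPKM in the mM-CSF and 32 FPKM in the sM-CSF library, against 24.97 FPKM in the control library. With sM-CSF 1 gene of the 25 was lower and 0 higher, and the median was -0.22. That gene was Ear2, a ribonuclease gene with close relatives that is shared with the eosinophil list, at 115 FPKM against 232 FPKM in the control library (chosen after its value was seen).

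Receptors and identity genes of resident macrophages gave few calls against control. Among 15 listed genes 1 (Mertk) was lower and 0 higher with mM-CSF, with a median of 0.30, and 0 passed with sM-CSF, with a median of -0.38. Once the trend over length was taken out, Mertk (-0.87) no longer passed, and Siglec1, Axl and Stab2 were called higher with mM-CSF. Mertk, a receptor for apoptotic cells, was at 17.8 and 25.6 FPKM in the mM-CSF and sM-CSF libraries, against 42.2 FPKM in the control library. Cd5l, a secreted scavenger protein gene, was at 119 FPKM in the mM-CSF and 40.7 FPKM in the sM-CSF library, against 68.9 FPKM in the control library. Axl was at 157 and 101 FPKM in the mM-CSF and sM-CSF libraries, against 88.8 FPKM in the control library. Between mM-CSF and sM-CSF, Cd5l and Spic were higher and 0 genes lower, with a median of 0.40, beside 3.79% of all genes higher and 8.73% lower. On TPM Cd5l alone stayed higher, beside 1.52% of all genes, and the median was 0.08. With the length trend removed Spic (0.73) no longer passed, while Axl and Stab2 did, beside 1.99% of all genes higher.

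Enzymes around arginase gave 1 call, which ended with the length trend removed. Of 9 arginine metabolism genes that had a row, 1 (the transporter gene Slc7a1) was lower with mM-CSF, at 7.06 FPKM against 16.7 FPKM in the control library, and 0 passed with sM-CSF. Slc7a1, a gene of 7118 bases, differed by -1.13 as reported and by -0.10 with the trend removed. The medians were 0.18 for mM-CSF and -0.08 for sM-CSF. Srm, the spermidine synthase gene, was at 106 and 54.1 FPKM in the mM-CSF and sM-CSF libraries, against 58.1 FPKM in the control library, and Odc1, which turns ornithine into putrescine, at 100.4 and 70.4 FPKM, against 85.2 FPKM. Asl, which makes arginine, was at 21.1 and 13.9 FPKM, against 12.6 FPKM. Arg2 stayed under 1 FPKM, and Nos2, which competes with arginase for arginine and marks classical activation, had no row in the 3 tables.

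Among 19 close relatives of the markers, 1 (Izumo1r) was higher and 2 (Ly75 and Il13ra1) lower with mM-CSF, with a median of 0.19 over the 10 measured, and 0 passed with sM-CSF (median -0.16). Once the length trend was removed, Stab2 was the 1 higher call and Ly75 the 1 lower call. Izumo1r, a folate receptor relative carried by T cells, was at 17.5 and 12.5 FPKM in the mM-CSF and sM-CSF libraries, against 6.80 FPKM in the control library. The T cell markers, 5 of them in the tables, summed to 332 and 281 FPKM, against 164 FPKM in the control library, and their part in the Izumo1r values was not tested. Ly75, a mannose receptor relative of dendritic cells, was at 0.84 and 4.40 FPKM in the mM-CSF and sM-CSF libraries, against 6.03 FPKM in the control library. Below the minimum stood Chil1, a chitinase-like relative of Chil3. It was at 4.03 FPKM in the mM-CSF and 0.46 FPKM in the sM-CSF library, against 0.26 FPKM in the control library. Those levels are 59, 7 and 4 reads. Retnlg, a resistin-like gene of granulocytes, was at 3.38 and 1.34 FPKM, against 0.94 FPKM in the control library. Chil1 and Retnlg were chosen after their values were seen.

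Genes of classical activation, the state that interferon and microbial products induce, were set beside the markers. Of 20 that had a row, 3 (Il1b, Il12b and Tnf) were lower and 0 higher with mM-CSF, a share of the 16 genes reaching 5 FPKM that is near the 15.1% of all genes, with a median of -0.50. With sM-CSF 1 (Il12b) was lower, with a median of -0.11, and with the length trend removed 3 were (Il1b, Il12b and Fpr2). Of the monocyte and conventional dendritic cell markers given above, 3 and 7 were called lower with mM-CSF, and 1 monocyte marker (Ly6c2) higher. With sM-CSF 3 monocyte markers and 0 of the 8 dendritic cell markers were called lower. The part of such cells in these values was not tested. Il12b, the shared chain of IL-12 and IL-23, was at 0.51 and 2.09 FPKM in the mM-CSF and sM-CSF libraries, against 5.80 FPKM in the control library. Tumor necrosis factor (Tnf) was at 10.3 and 20.7 FPKM, against 36.95 FPKM in the control library, and Il1b at 6.52 and 37.4 FPKM, against 68.6 FPKM. Fpr2, a formyl peptide receptor gene, was highest with mM-CSF, at 31.1 FPKM in the mM-CSF and 7.67 FPKM in the sM-CSF library, against 15.6 FPKM in the control library (0.95 for mM-CSF against control, short of the 2-fold rule). With the length trend removed the median of this list for mM-CSF was -0.78, beside 0.60 for the alternative activation markers. Both medians include genes under 5 FPKM (Stab1 and Folr2 among the markers), for which the trend is not on a like scale. On the same scale it was -0.61 for the other alternative activation genes, -0.39 for the signalling genes and -0.18 for the regulators. It was -0.08 for the relatives, 0.22 for the resident macrophage genes and 0.25 for the arginine metabolism genes. On TPM the median for mM-CSF against control was -0.96 for the classical activation list and -0.16 for the markers.

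The M-CSF libraries were also set against each other over the lists, where 3.79% of all genes were called higher and 8.73% lower. With the length trend removed those shares were 1.99% and 4.67%. Of the IL-4 and IL-13 signalling genes 0 were higher and 2 (Jak2 and Irs2) lower with mM-CSF than with sM-CSF, with a median of -0.68. Of the regulators 1 (Nr1h3, a nuclear receptor for oxysterols) was higher and 3 (Klf4, Kdm6b and Bhlhe40) were lower, and of the other alternative activation genes 0 were higher and 6 lower. Nr1h3 no longer passed on TPM or with the length trend removed (0.90), and with the trend removed Kdm6b (-0.55) also no longer passed, while Rxra, Maf and Bhlhe41 were called higher and Batf3 lower. In the other list Pdcd1lg2 (-0.85), Tgm2 (-0.98) and Cd36 (-0.80) ended their calls with the trend removed, which left 3 lower, and Igf1 was called higher. Of the classical activation genes Fpr2 was higher and Il1b lower, with Tnf lower too once the trend was removed. The scaling bears on the positive medians, since on TPM those of the resident macrophage, arginine and relatives lists for mM-CSF against control were -0.16, -0.27 and -0.23, and Izumo1r no longer passed. On TPM the signalling list kept 0 higher calls against control and had 9 lower ones, with a median of -1.29. Of all genes, 29.3% were called lower there, and the median over those at 1 FPKM or more was -0.51. Nr1h3 and the further genes that passed on the trend-removed scale were chosen after their values were seen.

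**Figure D4:**
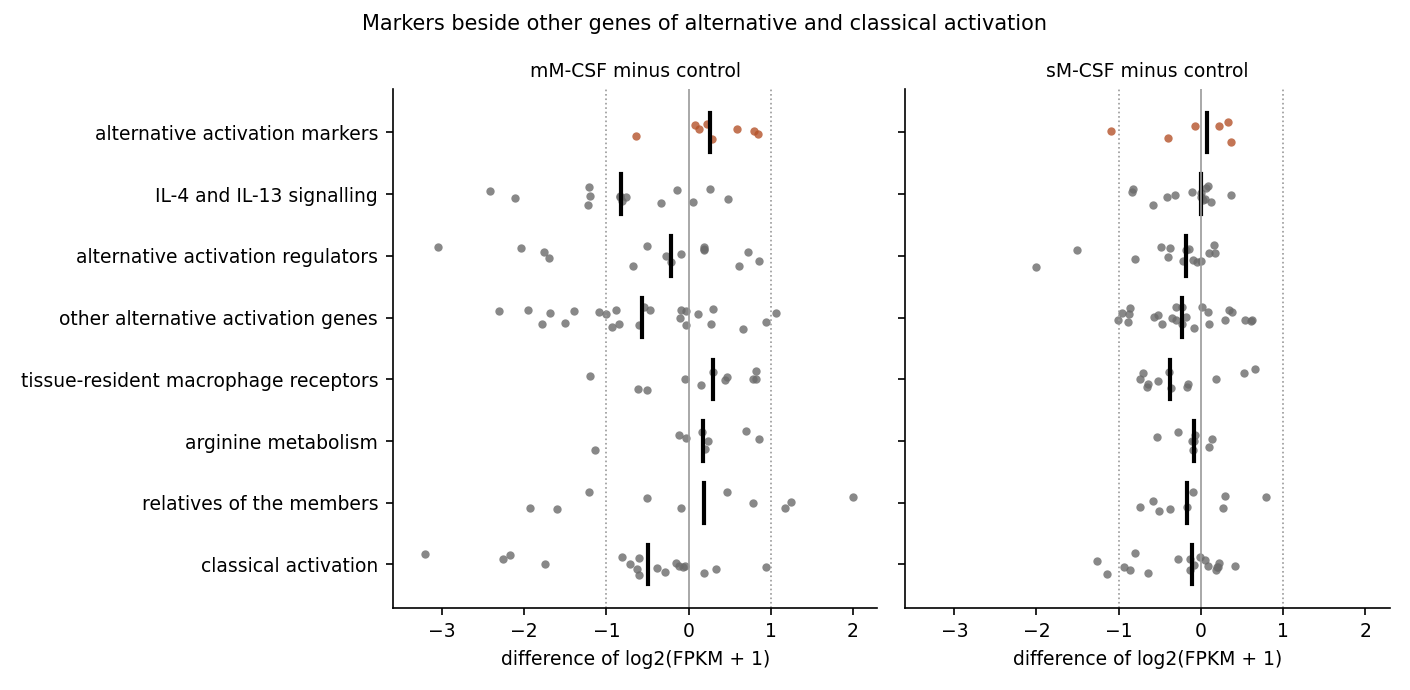
Difference of log2(FPKM + 1) of genes at 1 FPKM or more in the 10 markers and in 7 further lists, for mM-CSF minus control and sM-CSF minus control. Points are genes, black bars are medians, and dotted lines mark 2-fold. The markers center at 0.26 and 0.08, while IL-4 and IL-13 signalling genes center at -0.82 with mM-CSF and at 0.01 with sM-CSF.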

How the data were processed

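RNA from sorted splenic macrophages was measured in 3 libraries, 1 per group. Libraries took 1 ug of total RNA and were read on a BGISEQ-500, per the labels' protocols. The submitters' processing notes name Bowtie2 (2.2.5) and RSEM without their roles, and the sources used here do not give genome build, annotation or strand setting. The deposited tables give, per the file headers, an expected count (estimated reads per gene, not always whole) and an FPKM value scaled by the authors, per NCBI gene ID. Genes without a row were taken as 0.

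Symbols came from a RefSeq table of GRCm38.p6 (17561 of 17615 IDs). The coordinates printed for the promoter windows are on that build, and the authors' build is unknown. Differences were taken as log2(FPKM + 1). Counts, rounded to whole numbers, gave exact conditional (Clopper-Pearson) 95% intervals of ratios and exact Poisson intervals of levels, computed in Python 3.11.15 with scipy 1.17.1, and these cover counting error only. The call rule and the intervals were run on simulated data with counting error only, for genes at 10 FPKM or more. That setting had no length trend and no replicate spread, so it checks the computation and not these libraries. The length trend was the running median over 20 length bins. Sequence shared between genes was counted over 50-base windows of GENCODE M21 transcripts, a width chosen here because read length was not used. Of 117 genes in 7 lists 112 were in the tables, and of 94 genes in 12 marker lists 93.

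The markers and lists were chosen with earlier results of these data known. Named genes were the 10 markers, up to 4 genes per list with the largest difference from control among those reaching 5 FPKM, and the 3 genes nearest in profile to the marker with the widest range. Tried alternatives were the pseudocount, the minimum, the scaling, the length trend and the size rule. List calls on TPM and with the length trend removed were added after the data were seen.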

Additional observations from a re-analysis of the deposited data

How the results depend on the processing

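With 1 library per group no replicate could be left out. No paired analysis was possible because each group has a single library. The 1.5-fold size rule gave 1 marker higher (Chil3) and 1 lower (Pparg) for mM-CSF against control, in place of 0 and 0. Rescaling to TPM gave 1 lower marker (Pparg) there and moved the markers' median to -0.16 in place of 0.26, while the median of all genes moved to -0.51 and 7.37% of called genes were higher in place of 37.2%. Between mM-CSF and sM-CSF, TPM moved the median of all genes to -0.41 in place of -0.11, and the share of calls that were higher to 7.59% in place of 30.3%. Removal of the length trend moved the markers' median for mM-CSF against control to 0.60 in place of 0.26. That median includes Stab1 and Folr2, both under 5 FPKM, for which the trend is not on a like scale. Removal of the trend left 0 markers higher between mM-CSF and sM-CSF in place of 1, with Chil3 at 0.95. A pseudocount of 5 also left 0 higher there, and 0 lower between sM-CSF and control in place of 1 (Pparg). The causes were not tested. On TPM the calls with mM-CSF against control also moved by over 1.5 times for IL-4 and IL-13 signalling (9 lower in place of 5). They did so for resident receptors (2 in place of 1) and classical activation (8 in place of 3) too. With sM-CSF, other alternative activation and classical activation had 3 lower in place of 1 each, and signalling 1 (Irs2) in place of 0. Of all genes, 29.3% were called lower on TPM in place of 15.1% for mM-CSF, and 2.72% in place of 1.63% for sM-CSF. Between mM-CSF and sM-CSF, TPM gave 7 lower signalling genes in place of 2 and 4 lower classical activation genes in place of 1. It gave 1 higher resident receptor gene in place of 2. Of all genes, 18.6% were called lower there in place of 8.73%, and 1.52% higher in place of 3.79%. Removal of the length trend left 3 lower signalling genes in place of 5 for mM-CSF against control. For mM-CSF against sM-CSF it left 3 lower other alternative activation genes in place of 6. Over all genes 7.95% and 4.67% were called lower with the trend removed in the same comparisons. The signalling list's median with sM-CSF was -0.14 on TPM in place of 0.01. Recomputing list calls on TPM and without the length trend was added after the data were seen. The other alternatives gave the same counts of markers, and Pparg was counted lower with sM-CSF under each of them. Of 196 values of single markers under an alternative, 169 moved by less than their counting error, 27 by more, and 0 called values changed sign. Depth limits Arg1, Retnla and Folr2 most, with at most 14 reads each.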

Other observations

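Genes described as targets of the receptor that Pparg encodes were looked at after the Pparg values were seen, so their choice is not independent of them. Of 15 such genes 11 were at 1 FPKM or more. Fabp4, a fatty acid carrier gene, was at 16.5 FPKM in the mM-CSF and 5.76 FPKM in the sM-CSF library, against 28.9 FPKM in the control library, the order that Pparg had. The lipase gene Lpl was at 44.7 FPKM in the mM-CSF and 18.04 FPKM in the sM-CSF library, against 15.5 FPKM in the control library, and thus did not follow it. Angptl4 was at 10.3 and 4.50 FPKM, against 4.49 FPKM in the control library, and Abca1 at 3.31 and 8.17 FPKM, against 12.99 FPKM. By the 2-fold rule 2 of the 15 were higher and 2 lower with mM-CSF than in the control, beside 8.97% and 15.1% of all genes. With sM-CSF 0 were higher and 1 lower, beside 0.785% and 1.63%. The median differences were -0.50 and -0.38, beside -0.07 and 0.02 over all genes at 1 FPKM or more. Between mM-CSF and sM-CSF 4 were higher and 3 lower, beside 3.79% and 8.73% of all genes. The median there was 0.37, beside -0.11 over all genes.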
